A study of Homo sapiens with 6 samples.

Results

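Heparan sulfate and chondroitin sulfate are long sulfated sugar chains that cells attach to a small set of core proteins, and 46 genes of their assembly line were examined in NCI-H1975 cells, an established line from a human lung cancer of the non-small cell type. The genes were taken as a list of symbols, and all 46 were found among the 60960 features of the deposited table. They were divided by role into 9 steps: the linker to the core protein, heparan chain synthesis, chondroitin chain synthesis, heparan sulfation and epimerization, chondroitin and dermatan sulfation, extracellular editing, supply of UDP-sugars, syndecan cores and glypican cores. RNA sequencing had been done on 6 libraries, 3 from cells given a control small interfering RNA (siNC) and 3 from cells given a small interfering RNA against GFPT2 (siGFPT2). The extraction text for every library also speaks of almonertinib, EGF and knockdown of EGFR, and no treatment label carries these. No label says that the replicates of a group were separate cultures, so the spread between them may be technical.

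Both chains start on a serine that is followed by glycine in the core protein, where a xylose and then galactose and glucuronic acid are added in the Golgi apparatus. Repeats of N-acetylglucosamine and glucuronic acid make a heparan chain, and repeats of N-acetylgalactosamine and glucuronic acid a chondroitin chain, and sulfotransferases then modify them. The finished chains bind growth factors at the cell surface and in the matrix. GFPT2 and its paralog GFPT1 catalyse the first step of the hexosamine pathway, which ends in UDP-N-acetylglucosamine, a donor for these chains. The comparison of siGFPT2 with siNC therefore concerns a gene upstream of a donor used in heparan chain synthesis. Many members, such as the cores and the sulfotransferases, do not use that donor.

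The coding sequence of the cores shows where chains can start, and 1 stretch with most pairs is printed for 7 of the 8 cores because 2 of the 3 highest members are such cores. In GENCODE 29 the principal transcripts held 5 in-frame pairs of a serine codon (TCN, AGC or AGT) and a glycine codon (GGN) in SDC1, 3 in SDC2, 8 in SDC3, 4 in SDC4, 6 in GPC1, 2 in GPC3, 3 in GPC4 and 4 in GPC6. Of 19798 coding genes 61.1% held at least 1 such pair, and 0.213% of 551120 stretches of 20 codons held 2 or more. Those stretches were laid end to end, while the printed ones were picked to hold the most pairs. The 0.213% is therefore no measure of how rare the printed stretches are. The stretches below run 5′ to 3′ on the coding strand of GRCh38, 60 bases each, and capitals mark such codon pairs. A match describes the letters and does not show that a chain is attached.
SDC4, codons 58 to 77, exons 2 and 3 of 5, chr20:45333038-45335809, minus strand: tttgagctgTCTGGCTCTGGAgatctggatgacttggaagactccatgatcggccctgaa
SDC1, codons 34 to 53, exons 3 and 4 of 6, chr2:20204281-20205391, minus strand: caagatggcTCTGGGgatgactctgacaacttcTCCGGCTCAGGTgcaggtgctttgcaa
SDC3, codons 77 to 96, exons 2 and 3 of 5, chr1:30877134-30878650, minus strand: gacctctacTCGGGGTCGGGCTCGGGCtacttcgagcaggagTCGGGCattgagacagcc
GPC1, codons 483 to 502, exon 9 of 9, chr2:240466060-240466119, plus strand: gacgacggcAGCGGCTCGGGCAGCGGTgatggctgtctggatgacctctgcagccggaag
GPC6, codons 490 to 509, exon 9 of 9, chr13:94403017-94403076, plus strand: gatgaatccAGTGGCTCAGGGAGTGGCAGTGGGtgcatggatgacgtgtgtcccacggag
GPC4, codons 491 to 510, exon 9 of 9, chrX:133303008-133303067, minus strand: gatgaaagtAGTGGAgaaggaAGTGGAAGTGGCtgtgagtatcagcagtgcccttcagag
GPC3, codons 492 to 511, exon 7 of 8, chrX:133596480-133596539, minus strand: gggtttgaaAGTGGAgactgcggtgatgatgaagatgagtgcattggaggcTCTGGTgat
The syndecan stretches cross from 1 exon to the next, so their genome range includes an intron, while those of GPC1, GPC4 and GPC6 lie within the last exon and that of GPC3 in the exon before it. In the stretches of GPC1, GPC4 and GPC6 the pairs lie next to one another or almost so, and in that of GPC3 apart. SDC1, SDC3, SDC4 and GPC1 also have pairs elsewhere in their coding sequence. SDC2 is the core for which no stretch is printed, although it holds 3 pairs.

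Depth ranged from 21899321 to 27234880 counted fragments per library, as recovered from the steps of the deposited values. Levels are in FPKM, which divides a gene's fragments by its length in kilobases and by the library's counted fragments. The targeted gene did not separate the labels: GFPT2 was at 10.1, 9.31 and 8.29 FPKM in the siNC libraries and 8.94, 7.58 and 8.72 in siGFPT2 (exact two-sided permutation p = 0.4, where 0.1 is the smallest possible). Its log2 fold change was -0.13 (95% interval -0.43 to 0.17), so siGFPT2 below means the libraries labelled so. The epithelial markers EPCAM, CDH1, KRT7, KRT8, KRT18 and KRT19 summed to between 1430 and 2090 FPKM, and PTPRC and MS4A1, which define leukocytes, had means of 0.00668 and 0 FPKM. Of 8 fibroblast markers 2 reached a mean of 1 FPKM (COL1A1 and COL1A2), and the list summed to 9.5 to 11.5 in siNC and 9.62 to 13.6 in siGFPT2. The part of other cells in the results was not tested, and in bulk RNA fewer cells of a type cannot be told apart from less RNA per cell. siNC replicate 3 and siGFPT2 replicate 2 stood apart from the other 4 libraries: they took 46.4 and 26.9 on the first principal component, which held 68% of the variance, against -23.3 to -16.0.

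Levels between members are compared per length, in FPKM, over all 6 libraries, and 34 of the 46 members had a mean of at least 1 FPKM. The 12 others lay between 0.0213 FPKM for SULF1 and 0.889 for HS3ST1. Cores and chondroitin polymerization factors led the list. SDC4 (ENSG00000124145, chr20:45325288-45348424, minus strand, GRCh38) had the highest mean, 101 ± 2.76 FPKM (SD, n = 6), followed by CHPF with 77.1 ± 6.60, SDC1 with 65.5 ± 2.47 and CHPF2 with 43.5 ± 3.26. The ranges of these 4 genes over the 6 libraries did not overlap: SDC4 ran from 97.1 to 104, CHPF from 70.1 to 86.2, SDC1 from 61.6 to 69.4 and CHPF2 from 39.2 to 48.6.

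**Figure D1:**
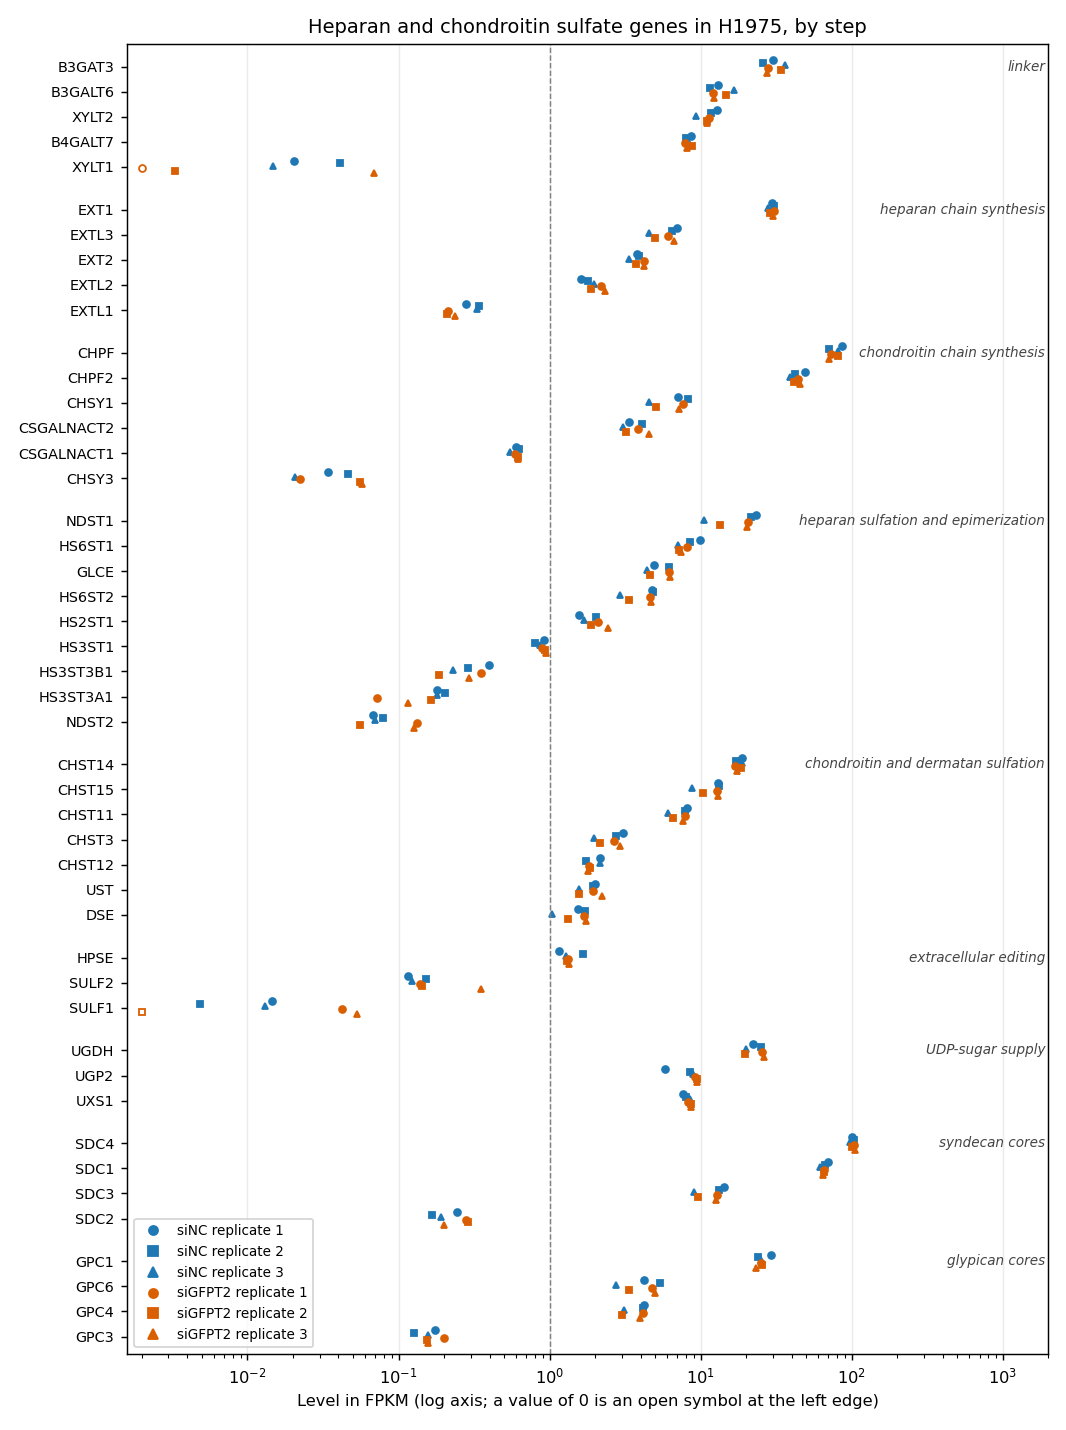
Level of each of the 46 members in FPKM on a log axis, grouped by step and ordered by mean within it; each symbol is 1 library, blue for siNC and orange for siGFPT2, and the dashed line marks 1 FPKM. SDC4 sits between 97.1 and 104 FPKM at the top of the range, and 12 members lie below the line on average.

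Of the 5 linker enzymes 4 had RNA at a mean of at least 1 FPKM. B3GAT3, the glucuronyltransferase that completes the linker, was at 30.0, 25.8 and 35.9 FPKM in the siNC libraries and 27.8, 33.9 and 27.6 in siGFPT2. B3GALT6, which adds the second galactose, held 13.1, 11.6 and 16.5 in siNC and 12.0, 14.8 and 12.3 in siGFPT2. In both genes siNC replicate 3 and siGFPT2 replicate 2 were the highest of the 6 libraries, and the groups overlapped. For xylosylation, the first reaction, RNA of XYLT2 ranged from 9.36 to 12.7 FPKM. Its paralog XYLT1 was seen with 0 to 17 fragments per library and a mean of 0.0248 FPKM. XYLT1 had no fragment in siGFPT2 replicate 1, where a count of 0 allows up to 0.0119 FPKM. B4GALT7, which adds the first galactose, stayed between 7.84 and 8.73 FPKM.

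Heparan chains are polymerized by a complex of EXT1 and EXT2, and the deposited levels of the partners lay far apart. EXT1 was at 29.7, 30.5 and 28.0 FPKM in the siNC libraries and 30.6, 28.9 and 30.1 in siGFPT2, while EXT2 ranged from 3.36 to 4.18 FPKM. Within each library EXT1 was 7.20 to 8.35 times EXT2. Much of that distance came with the gene length behind the values: whole fragments for EXT2 required a length of 20632 bases, against 3424 for its principal transcript. Per kilobase of the principal transcripts EXT1 was only 1.55 to 1.80 times EXT2. EXTL3, which starts heparan chains, was at 6.95, 6.47 and 4.52 FPKM in the siNC libraries and 6.10, 5.01 and 6.66 in siGFPT2. EXTL2, a related transferase, held 1.61, 1.80 and 1.96 in siNC and 2.171, 1.884 and 2.334 in siGFPT2, and EXTL1 averaged 0.269 FPKM.

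**Figure D2:**
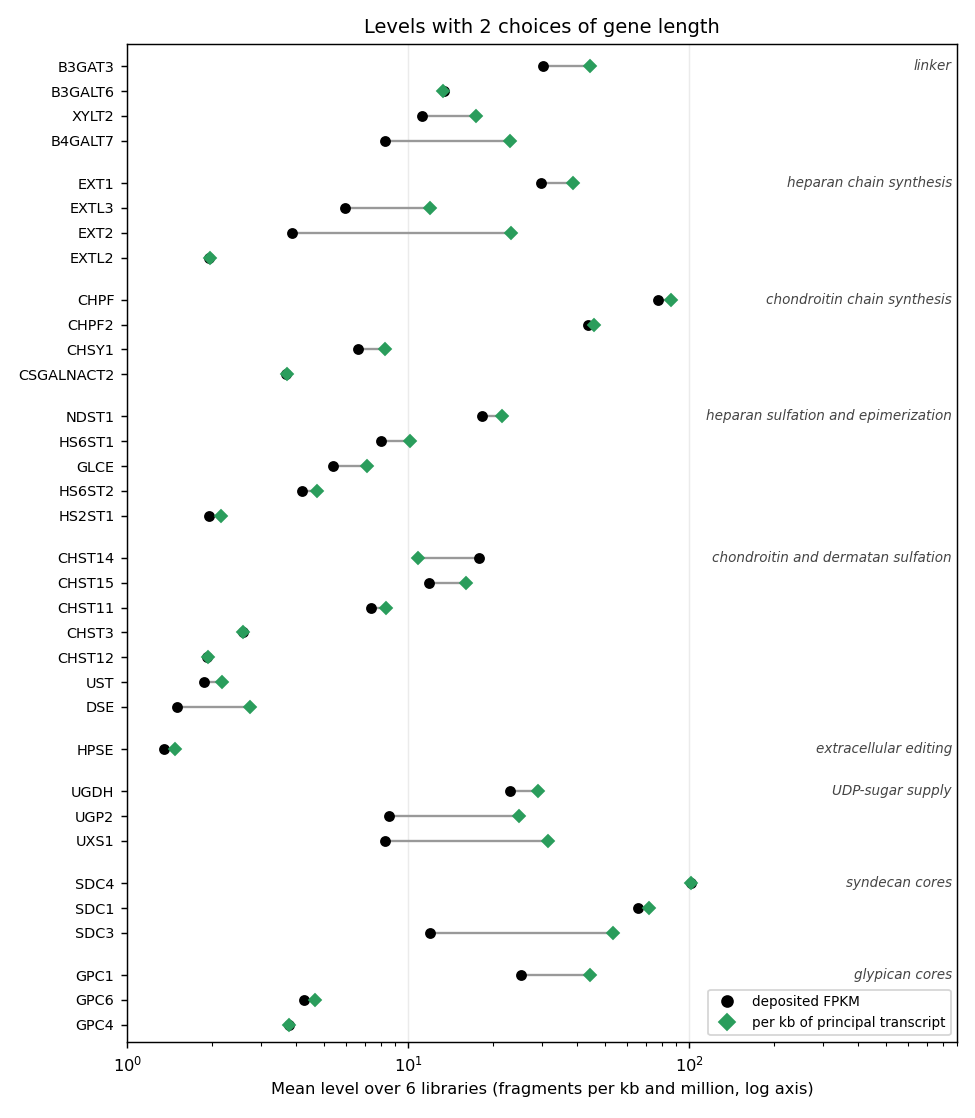
Mean level over the 6 libraries of the 34 members with at least 1 FPKM, as deposited (black circles) and per kilobase of the GENCODE 29 principal transcript (green diamonds), on a log axis. EXT2 moves from 3.86 to 23.2 and SDC3 from 12.0 to 53.5, whereas SDC4 stays at 101.

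The length mattered for other members too. It was over 1.5 times that of the principal transcript in 9 of the 34, and CHST14 was the 1 member with a length that was shorter to that degree. The mean of SDC3 went from 12.0 to 53.5, of UXS1 from 8.25 to 31.3, of UGP2 from 8.55 to 24.8 and of B4GALT7 from 8.26 to 23.1 with the shorter length, and of CHST14 from 17.8 to 10.9 with the longer one. SDC4, CHPF and SDC1 kept the first 3 ranks among the 46 with either length. A transcript's share of the fragments is not known from gene totals, so neither scale gives the level of 1 isoform, and this choice cancels in any comparison between libraries.

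Chondroitin chain synthesis was led by its polymerization factors. CHPF was at 86.2, 70.1 and 80.9 FPKM in the siNC libraries and 73.2, 81.5 and 70.9 in siGFPT2, and CHPF2 held 48.6, 42.0 and 39.2 in siNC and 44.2, 41.7 and 45.1 in siGFPT2. CHSY1, the chondroitin synthase that works with these factors, held 7.09, 8.19 and 4.58 in siNC and 7.64, 5.02 and 7.18 in siGFPT2. CHPF was 8.57 to 17.7 times CHSY1 within a library, and 7.70 to 15.9 times per kilobase of the principal transcripts. Of the initiating transferases CSGALNACT2 ranged from 3.07 to 4.54 FPKM and CSGALNACT1 from 0.546 to 0.625. The second synthase, CHSY3, rested on 2 to 6 fragments per library.

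Of the N-sulfotransferases of heparan sulfate only NDST1 was above 1 FPKM. NDST1 (ENSG00000070614, chr5:150485818-150558211, plus strand, GRCh38) removes acetyl groups and adds sulfate, which sets the pattern for later enzymes. It was at 23.4, 21.6 and 10.5 FPKM in the siNC libraries and 20.7, 13.3 and 20.1 in siGFPT2. Its range over the libraries, 2.23-fold, was the widest of the 34 members, with the lowest values in siNC replicate 3 and siGFPT2 replicate 2. NDST2 averaged 0.0884 FPKM from 7 to 14 fragments, but in GENCODE 29 another gene on the same strand (AC022400.6, listed at 0 FPKM) shares 82.9% of its exon bases, so its level is uncertain. HS6ST1, a 6-O-sulfotransferase, held 9.82, 8.52 and 7.08 in siNC and 8.07, 7.21 and 7.42 in siGFPT2, and its paralog HS6ST2 ranged from 2.93 to 4.79. GLCE, the epimerase that makes iduronic acid, ranged from 4.39 to 6.22 FPKM. HS2ST1, which sulfates that iduronic acid, held 1.57, 2.04 and 1.69 in siNC and 2.10, 1.87 and 2.45 in siGFPT2. The 3-O-sulfotransferases, which make rare sites such as the one that binds antithrombin, were all under 1 FPKM: HS3ST1 at 0.889, HS3ST3B1 at 0.291 and HS3ST3A1 at 0.152. HS3ST3A1 and HS3ST3B1 are close paralogs, and reads between them may be split uncertainly.

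All 7 genes of chondroitin and dermatan sulfation were measured at 1 FPKM or more. CHST14, the 4-O-sulfotransferase of dermatan sulfate, was at 18.6, 17.2 and 18.7 FPKM in the siNC libraries and 16.8, 18.5 and 17.3 in siGFPT2. CHST15, which adds a 6-O-sulfate to sulfated N-acetylgalactosamine, held 13.1, 13.2 and 8.79 in siNC and 12.8, 10.3 and 13.0 in siGFPT2. CHST11, a chondroitin 4-O-sulfotransferase, ranged from 6.11 to 8.16, and CHST3, a 6-O-sulfotransferase, from 1.96 to 3.05, so that CHST11 was 2.57 to 3.12 times CHST3 within each library. DSE, the epimerase that turns chondroitin into dermatan, ranged from 1.04 to 1.74 FPKM, and CHST14 was 9.91 to 17.9 times DSE. That ratio was 3.33 to 6.04 per kilobase of the principal transcripts. CHST12 and UST had means of 1.92 and 1.87 FPKM, and their ranges overlapped.

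Enzymes that edit finished chains outside the cell were low. The endosulfatases SULF1 and SULF2, which remove 6-O-sulfate from heparan sulfate, averaged 0.0213 and 0.171 FPKM. SULF1 was seen with 0 to 11 fragments, and its 0 in siGFPT2 replicate 2 allows up to 0.0118 FPKM. SULF2 held 0.116, 0.151 and 0.123 in siNC and 0.139, 0.143 and 0.352 in siGFPT2, so that siGFPT2 replicate 3 stood above the rest, from 52 fragments. HPSE, the heparanase that cuts the chain, held 1.16, 1.67 and 1.28 in siNC and 1.33, 1.31 and 1.35 in siGFPT2.

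Sugar supply was measured through 3 genes. UGDH, which oxidizes UDP-glucose to UDP-glucuronic acid, was at 22.3, 25.2 and 19.8 FPKM in the siNC libraries and 25.4, 19.5 and 26.4 in siGFPT2. UGP2, which makes the UDP-glucose, held 5.84, 8.45 and 8.89 in siNC and 9.20, 9.46 and 9.45 in siGFPT2. The 3 siGFPT2 values of UGP2 lay above every siNC value, and siNC replicate 1 was the low library. UXS1, which makes the UDP-xylose for the linker, ranged from 7.67 to 8.65 FPKM. UGDH exceeded UGP2 by 2.06 to 3.82 times in FPKM, but the ratio was 0.887 to 1.65 per kilobase of the principal transcripts, so their order depends on the length.

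The syndecans, cores that span the membrane, were represented by SDC4, SDC1 and SDC3. SDC4 was at 99.8, 103 and 97.1 FPKM in the siNC libraries and 104, 99.9 and 104 in siGFPT2, the narrowest range of the 34 members at 1.07-fold. SDC1, the common syndecan of epithelia, held 69.4, 66.1 and 61.6 in siNC and 65.1, 65.7 and 64.9 in siGFPT2. SDC4 was 1.44 to 1.60 times SDC1 in each library. SDC3 ranged from 9.04 to 14.2 FPKM, and SDC2 averaged 0.228 from 15 to 32 fragments. Among the glypicans, which are held to the membrane by a lipid anchor, GPC1 was at 29.3, 23.9 and 25.1 FPKM in the siNC libraries and 25.02, 25.31 and 23.15 in siGFPT2. GPC6 held 4.23, 5.34 and 2.77 in siNC and 4.759, 3.351 and 5.003 in siGFPT2, and its range overlapped that of GPC4, at 3.02 to 4.21. GPC1 made up 71.3% to 80.6% of the summed FPKM of the 4 glypicans, and GPC3, a marker of liver cancer, had a mean of 0.161 FPKM.

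No member passed the test for a difference between siGFPT2 and siNC. In limma's moderated test over all 12896 features that averaged 1 FPKM or more, 0 of the 34 tested members had an adjusted p under 0.05, against 0% of all features. At an unadjusted p under 0.05 there were 0 members in either direction, beside 84 features (0.651%; 0.326% higher and 0.326% lower in siGFPT2). On recovered reads limma-voom called 0 members, and 0 had an unadjusted p under 0.05, beside 0.465% of features. The same counts of 0 came with the replicate block (0.489% of features) and with the length trend removed (0.83%). The median log2 fold change was 0.017 over the members and 0.033 over all features. Fold changes were above 0 for 20 of the 34, or 58.8%, beside 61.4% of all features, and for 12 of 34 once each library was centred on its median, so no common direction can be read from the count.

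**Figure D3:**
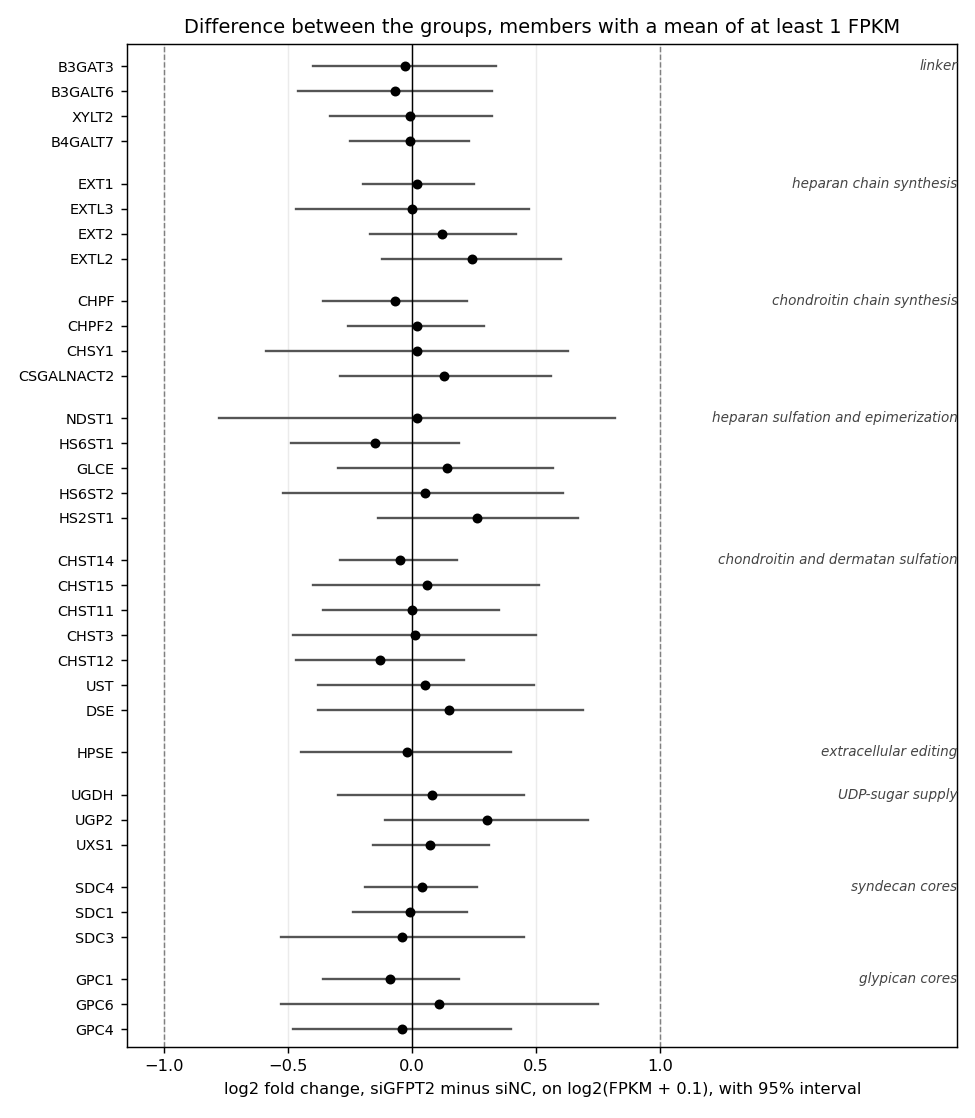
Log2 fold change of siGFPT2 against siNC for the 34 tested members, on log2(FPKM + 0.1), with the 95% interval of limma's fit (3 libraries a group); dashed lines mark 2-fold either way. All 34 intervals lie between the dashed lines and include 0, and NDST1 has the widest, from -0.78 to 0.82.

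The intervals bound what these libraries could hide. For all 34 tested members the 95% interval stayed within a 2-fold change either way, beside 92.8% of all features, and for 26 within 1.5-fold, beside 61.1%. Tight bounds were found for some abundant members, but NDST1, with a mean of 18.3 FPKM, had the widest interval. The interval for SDC4 was -0.19 to 0.26 on the log2 scale, and as a percent change it was -13.2% to 18.7% for EXT1, -15.4% to 16.8% for SDC1 and -22.3% to 14.1% for GPC1. NDST1 could have changed by anything from -41.6% to 76.0%, GPC6 by -30.6% to 68.5% and CHSY1 by -33.8% to 54.5%.

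UGP2 (ENSG00000169764, chr2:63840940-63891562, plus strand, GRCh38) had the smallest p of the members, with a log2 fold change of 0.30 ± 0.17 (SE; limma unadjusted p = 0.128, adjusted p = 0.9999). It was the 1 tested member whose groups did not overlap (2.94% of the members, beside 3.53% of all features, 2.16% higher and 1.36% lower in siGFPT2). The value rested on siNC replicate 1: it was 0.11 without that library and 0.41 without siNC replicate 3, where the unadjusted limma p was 0.043 and 4.03% of all features had one under 0.05. HS2ST1 followed with 0.26 ± 0.17 (unadjusted p = 0.162) and EXTL2 with 0.24 ± 0.15 (0.162), and in each the groups overlapped. HS6ST1 was the lowest, at -0.15 ± 0.14 (0.336), and had -0.04 without siNC replicate 1 and -0.27 without siNC replicate 3. By step 0 members were called, and fold changes were above 0 for 0 of 4 linker genes, 4 of 4 heparan chain genes, 3 of 4 chondroitin chain genes, 4 of 5 heparan sulfation genes, 4 of 7 chondroitin sulfation genes, 0 of 1 editing gene, 3 of 3 supply genes, 1 of 3 syndecans and 1 of 3 glypicans, beside 61.4% of all features. These signs were not stable: EXT1 had -0.03 and EXTL3 -0.05 with median centring, and B3GALT6 had 0.07 and B3GAT3 0.09 without siNC replicate 3.

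The largest movement among the members ran across the groups, in the libraries that stand apart. In 20 of the 34 tested members (58.8%) siNC replicate 3 and siGFPT2 replicate 2 held the 2 lowest values, beside 35.4% of all features, and in 2 (5.88%) the 2 highest, beside 29.8%. On the log2 scale NDST1 differed from the median of the other libraries by -0.972 in siNC replicate 3 and by -0.630 in siGFPT2 replicate 2. The corresponding differences were -0.760 and -0.494 for GPC6, -0.667 and -0.471 for HS6ST2, and -0.639 and -0.507 for CHSY1. B3GALT6 and B3GAT3 lay above, by 0.427 and 0.270 and by 0.369 and 0.284.

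Gene length went with this movement in part, with exceptions among the members. CHST12, of 16116 bases, lay at 0.233 and 0.03 in these libraries, CSGALNACT2, of 3765 bases, at -0.321 and -0.271, and SDC4, of 2613 bases, at -0.087 and -0.047. B3GALT6 and B3GAT3 have lengths of 2805 and 2407 bases, and the 20 members that were lowest in both libraries a median of 6518 bases. The 34 members as a whole had a median of 5569 bases, beside 4503 for all features. Over all features, log2 values changed with each doubling of length by -0.083 in siNC replicate 3 and -0.056 in siGFPT2 replicate 2, against 0.027 to 0.048 in the other 4. What produced the length trend was not tested. With both libraries left out, 0 members passed the adjusted threshold, 13 of 34 fold changes were above 0 and 31 intervals stayed within 1.5-fold. NDST1 then had -0.14 (95% interval -0.33 to 0.05). EXTL2 had 0.38, with an interval of 0.04 to 0.73. Its unadjusted limma p was 0.033 and its adjusted p was 0.7196, and 5.82% of all features had an unadjusted p under 0.05 there.

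**Figure D4:**
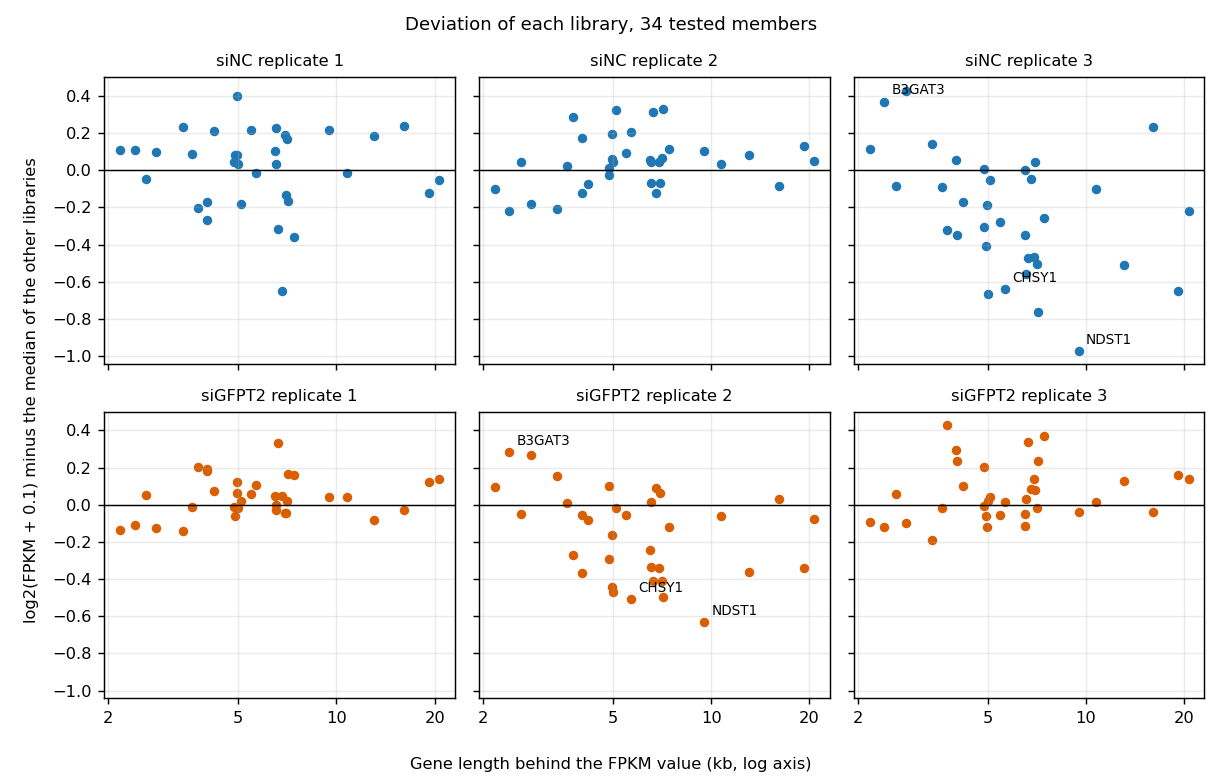
Each panel is 1 library and each point 1 of the 34 tested members: its log2(FPKM + 0.1) minus the median of the other libraries, against the gene length behind the value in kilobases on a log axis. In siNC replicate 3 and siGFPT2 replicate 2 NDST1 (9510 bases) lies at -0.972 and -0.630 and B3GAT3 (2407 bases) at 0.369 and 0.284, while CHST12 (16116 bases) lies at 0.233 and 0.03 and SDC4 (2613 bases) at -0.087 and -0.047.

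Other genes of the pathway gave the same count. Of 96 genes in 8 further lists 60 were tested, 0 passed the adjusted threshold, none reached an unadjusted p of 0.05 (0 of 60), and the median log2 fold change was 0.037, beside 0.033 over all features. Of 9 genes of sulfate donor supply 7 were tested: SLC35B2, which carries the activated sulfate donor into the Golgi apparatus, averaged 33.6 FPKM, and the synthases of that donor, PAPSS1 and PAPSS2, 12.2 and 10.7. PAPSS1 had a log2 fold change of 0.12 (95% interval -0.14 to 0.38) and SLC35B3, a second carrier, 0.17 (-0.15 to 0.48). In the list of UDP-sugar transport and hexosamine supply, GNPNAT1 had 0.25 (-0.09 to 0.59) and PGM3 had 0.23 (-0.12 to 0.58). FAM20B, the kinase of the linker xylose, had 0.10 and TMEM165, a Golgi protein needed for manganese, 0.11. The other 8 heparan enzymes, among them NDST3, NDST4 and HPSE2, averaged at most 0.0954 FPKM, and of the further chondroitin enzymes CHST7 was tested, at 1.92 FPKM with 0.01 (-0.37 to 0.38).

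Cores outside the syndecans and glypicans included abundant ones. APLP2, an amyloid precursor relative that can carry chondroitin sulfate, averaged 142 FPKM, CD44 58.9 and the basement membrane core AGRN 50.0. SRGN, the core of secretory granules, had the largest fold change of that list, 0.35 (-0.26 to 0.96), and COL18A1 had -0.12 (-0.44 to 0.20). Leaving out siNC replicate 2 gave SRGN 0.62, leaving out siNC replicate 3 gave 0.18, and leaving out the libraries that stand apart gave 0.09. The lysosomal enzymes that break the chains down were tested in 13 of 14 cases, with 0.14 (-0.28 to 0.56) for HEXA. Of the growth factors and receptors that bind these chains, HBEGF had 0.15 (-0.17 to 0.47) and FGFR4 -0.14 (-0.46 to 0.18).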

How the data were processed

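Gene expression was deposited by the authors as FPKM in 1 table, with 1 column per library and 3 libraries per group. The tools the authors ran, per the submitters' processing notes, are HISAT2, featureCounts and DESeq2, with no roles given. Tool versions, build and annotation: not given in the sources used here. Columns were tied to samples by name, and symbols to Ensembl identifiers by a table of gene names.

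Group was the only term of a model fitted with limma 3.58.1 (R 4.3.3) to log2(FPKM + 0.1), with a mean-variance trend, for features averaging 1 FPKM or more, with a two-sided test and Benjamini-Hochberg adjustment over 12896 features with a threshold of 0.05. Fold changes are on that scale and are too small for low genes. The fit was tested on simulated data, in which no library stood apart as siNC replicate 3 and siGFPT2 replicate 2 do. Alternatives were another pseudocount, filter, scaling or tool, libraries left out, a replicate block, and, chosen after seeing the data, removal of the length trend and another gene length.

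Fragments were recovered from the steps of the FPKM values within a tolerance of 0.0001, for 36979 of 36981 features above 0. The exon length of GENCODE 29 gave whole fragments for 53.9% of them, and otherwise the smallest length that did was used, which can be too short. For 9 members the GENCODE length was used and for 37 the smallest. Limits from a count of 0 cover counting error only.

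Per-library values were printed for the 2 highest members of each step, the 4 with the smallest p, the 3 with the largest spread and any tested member with an unadjusted p under 0.05 or groups that do not overlap. From each further list the 2 genes with the smallest p were named, except for an item that is not reported here. Other genes were named after their values were seen. The members and lists were chosen with earlier results of these data known. The serine and glycine codon count was planned on RefSeq proteins, which were not used here, and was made on GENCODE 29 coding sequence instead.

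Deviations from the group means correlated at 0.473, -0.719 and -0.57 for replicate numbers 1, 2 and 3. They correlated at 0.792 for siNC replicate 3 with siGFPT2 replicate 2, the libraries that stand apart. Because those libraries carry different numbers and weigh on each value, the correlations cannot show whether replicate numbers pair the samples.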

Additional observations from a re-analysis of the deposited data

How the results depend on the processing

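In all alternatives run on the fit, 0 members and 0 features were called. Features at an unadjusted p under 0.05 numbered 84, and 754 without a filter, 16 with a minimum mean of 5 FPKM, 50 to 520 with 1 library out (161 without siNC replicate 2, 520 without siNC replicate 3, 54 without siGFPT2 replicate 1, 50 without siGFPT2 replicate 3) and 751 with siNC replicate 3 and siGFPT2 replicate 2 left out together. With the replicate block 0 members and 0 features were called and 63 features had an unadjusted p under 0.05, so the block changed no call. The number of members above 0 was 20 of 34, 11 of 22 with the minimum of 5 FPKM, 28 of 46 with no filter, 12 with median centring, 16 with quantile normalization, 13 with the length trend removed, 13 without both libraries and 10 to 27 with 1 library out.

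Log2 fold changes near 0 changed sign, and the cause was not tested. With median centring they were -0.03 for EXT1 and NDST1, -0.04 for CHSY1 and CHPF2, -0.05 for EXTL3 and CHST7 and -0.02 for SDC4. With quantile normalization they were -0.05 for EXTL3, -0.03 for CHSY1 and CHST7, -0.01 for NDST1 and 0.01 for SDC1. With the length trend removed they were -0.02 for EXT1, CHSY1, CHPF2 and NDST1, -0.04 for EXTL3, -0.004 for SDC4 and -0.03 for CHST7. Without both libraries they were -0.07 for EXTL3, -0.04 for CHSY1, -0.02 for CHPF2 and CHST15, -0.14 for NDST1 and -0.06 for CHST7. With a pseudocount of 1 EXTL3 had -0.001. With 1 library out the ranges were -0.18 to 0.07 for B3GALT6, -0.15 to 0.09 for B3GAT3, -0.01 to 0.05 for EXT1, -0.19 to 0.12 for EXTL3, -0.22 to 0.2 for CHSY1, -0.05 to 0.1 for CHPF2, -0.34 to 0.23 for NDST1, -0.13 to 0.17 for CHST15, -0.13 to 0.12 for HPSE, -0.01 to 0.21 for UGDH, -0.05 to 0.03 for SDC1, -0.15 to 0.0006 for GPC1, -0.14 to 0.32 for GPC6, -0.07 to 0.09 for CHST7 and -0.04 to 0.26 for FAM20B. Without a change of sign, leaving out 1 library moved other values by over 1.5 times: -0.15 to -0.004 for CHPF, -0.09 to -0.02 for CHST14, 0.01 to 0.06 for SDC4, 0.17 to 0.37 for HS2ST1, -0.2 to -0.03 for COL18A1, -0.21 to -0.04 for FGFR4, 0.05 to 0.17 for PAPSS1, 0.05 to 0.15 for TMEM165, 0.11 to 0.22 for SLC35B3, 0.14 to 0.31 for PGM3, 0.09 to 0.21 for HBEGF and 0.06 to 0.27 for HEXA.

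Per kilobase of the principal transcript, means of the ratios within libraries became 1.66 for EXT1 over EXT2, 3.28 for EXT1 over EXTL3, 4.14 for CHST14 over DSE, 1.91 for CHST15 over CHST11, 3.28 for CHST11 over CHST3, 1.41 for SDC4 over SDC1, 1.38 for SDC1 over SDC3, 10.1 for GPC1 over GPC6, 2.29 for SDC4 over GPC1 and 1.19 for UGDH over UGP2. Members with few fragments, such as XYLT1, CHSY3, NDST2, HS3ST3A1 and SULF1, are too shallow for a comparison.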
